A study of Mus musculus with 3 samples.

Results

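Voltage-gated sodium channels were measured as 9 genes, 6 that encode pore-forming alpha subunits (Scn1a, Scn3a, Scn8a, Scn9a, Scn10a and Scn11a) and 3 that encode beta subunits (Scn2b, Scn3b and Scn4b). They were chosen by symbol from the 30142 genes that a probe set with a single symbol names on the array, and each of the 9 has 1 such probe set. The cells were primary dorsal root ganglion neurons of male ICR mice, an outbred strain, aged 8 to 10 weeks, and all cells were kept for 72 hours in DMEM with the B27 supplement. One culture also received recombinant SEMA3E at 1 µg/ml and a SEMA3E-blocking IgG at 1 µg/ml, another received SEMA3E at 1 µg/ml alone, and the control medium contained neither. No array of the IgG without SEMA3E, or of an unrelated IgG, was analysed here, so the IgG array shows the antibody in the presence of SEMA3E only. SEMA3E is a secreted guidance protein of the semaphorin family. Each medium has 1 array, so no value below has a replicate error, no difference has a test; precision is limited by having so few arrays.

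Each alpha subunit is a large protein that folds into a complete channel: it opens when the membrane depolarises, lets sodium into the cell and closes again through an inactivation gate within milliseconds. Beta subunits are small proteins with a single membrane-spanning segment that set the gating and surface number of the alpha subunits. Sensory neurons of the dorsal root ganglion are known for holding several alpha subunits at once. Some are blocked by tetrodotoxin (NaV1.1, NaV1.3, NaV1.6 and NaV1.7) and others resist it (NaV1.8 and NaV1.9), and the resistant kind is typical of nociceptors, the neurons that signal pain.

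The files were checked against the labelled cell type first. Of 20 pan-neuronal markers 19 were measured and all 19 lay above the background floor of 43.7 intensity units (5.48 on the log2(intensity + 1) scale). That floor is the 95th percentile of 492 vomeronasal receptor genes, which sensory ganglia are not known to use, and 17653 genes lay at or above it. Uchl1, a neuronal ubiquitin hydrolase, stood at 17.65 on the log2 scale in all 3 arrays. All 11 measured nociceptor markers and 8 of 9 measured large-diameter neuron markers were above the floor, the exception being Runx3. Markers of other cells were above it as well: 7 of 8 measured for Schwann cells (all but Mag), all 8 for satellite glia, all 7 for fibroblasts, 5 of 8 for macrophages (all but Csf1r, Ptprc and Mrc1) and 5 of 6 for endothelial and mural cells (all but Tek). Of all 30142 genes 58.6% were above the floor, a share that the macrophage markers hardly pass. In such RNA fewer cells of a type and less RNA per cell cannot be told apart. Some markers above the floor were still dimmer than the brightest vomeronasal receptor gene (6.55 on the log2 scale), so they are near background. They were Trpv1, Trpa1, Mrgprd and Prdm12 of nociceptors, Gja1 and Slc1a3 of satellite glia and Ncmap of Schwann cells. C1qa of macrophages and the endothelial Pecam1, Cdh5 and Kdr were too.

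Of the 9 sodium channel genes 8 lay above the floor and 1, Scn2b, lay just below it. The 8 spanned 6.04 to 11.44 in mean log2 level. In order of brightness they were Scn9a, Scn3b, Scn10a, Scn11a, Scn4b, Scn8a, Scn3a and Scn1a, with Scn2b last. The order is of probe set brightness on the log2 scale and not of RNA amount, because each probe set binds its target with its own strength and the values are not per length. The smallest step between neighbours was 0.19, from Scn4b to Scn8a, whereas the widest range of any member over the 3 arrays was 0.03.

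**Figure D1:**
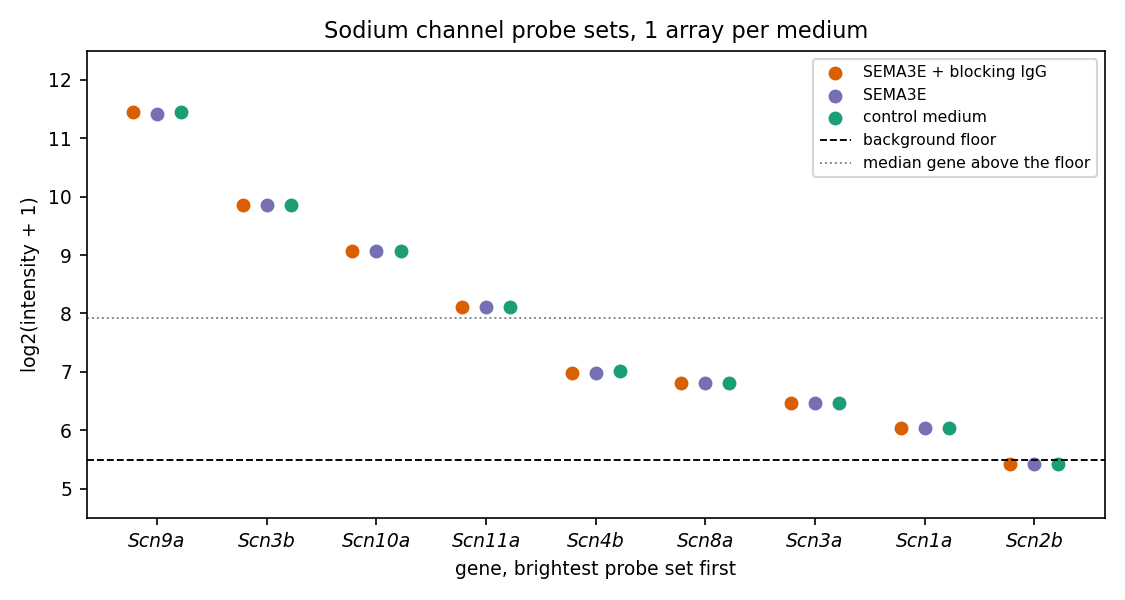
Level of each sodium channel gene on each array, as log2(intensity + 1), with genes from the brightest to the dimmest probe set. Each point is 1 array (SEMA3E with blocking IgG, SEMA3E, control medium); the dashed line is the floor at 5.48 and the dotted line the median of all genes above the floor at 7.92. The 3 points of each gene lie within 0.03 of each other, and Scn2b alone lies under the floor.

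The tetrodotoxin-sensitive subunit NaV1.7, encoded by Scn9a, amplifies small depolarisations near the firing threshold, and people who lack it do not feel pain. Its probe set read 2791.2 intensity units with SEMA3E and the IgG, 2734.4 with SEMA3E alone and 2791.2 in control medium. The IgG and control arrays held the same value to the last deposited digit, and the SEMA3E array was the low one, by −2.03% against control. Scn9a was the brightest member, at percentile 92.4 of all genes and 62-fold over the floor.

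Both tetrodotoxin-resistant subunits had the same value in every medium. Scn10a, which encodes NaV1.8, the channel that carries much of the sodium current of the nociceptor action potential, read 539 intensity units on each array, at percentile 80.3 of all genes. Scn11a, which encodes NaV1.9, a channel with a slow, persistent current near the resting potential, read 276.7 units on each array, at percentile 72.5. No medium stood apart from another in the reading of either gene. Readings were also identical on all 3 arrays for 74.9% of the genes above the floor, and equal readings are not evidence of equal RNA.

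The other tetrodotoxin-sensitive alpha subunits were dimmer, below the median of the genes above the floor (7.92 on the log2 scale), and they too were identical on all arrays. Scn8a encodes NaV1.6, the main channel of mature nodes of Ranvier, and read 110.7 intensity units on each array, 2.5-fold over the floor. Scn3a encodes NaV1.3, a channel of the embryonic nervous system that in rats reappears in sensory neurons after nerve injury, and read 87.2 units on each array, 1.97-fold over the floor. Scn1a encodes NaV1.1, a channel of myelinated sensory neurons, and read 64.7 units on each array, 1.47-fold over the floor. These 3, and Scn4b with them at 2.84-fold over the floor, were near enough to background that a small difference is hard to measure there: 98.8% of the vomeronasal receptor genes were dimmer than Scn1a and 99.6% were dimmer than Scn3a.

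Among the beta subunits, Scn3b and Scn4b were above the floor and Scn2b was not. Scn3b, whose product binds alpha subunits without a covalent bond, read 929.4 intensity units with SEMA3E and the IgG, 931.2 with SEMA3E alone and 931.2 in control medium. The IgG array was thus the low one, by −0.193% against each of the other arrays, which held an identical value. Scn4b encodes a subunit joined to the alpha subunit by a disulfide bond, and its inner tail can block open channels and so gives rise to resurgent current. It read 125.4 units with SEMA3E and the IgG, 125.4 with SEMA3E alone and 127.9 in control medium. Both media with SEMA3E held an identical value, −1.97% against control. Scn2b, the other disulfide-linked subunit, read 42 units on each array, 0.962 times the floor, and 93.7% of the vomeronasal receptor genes were dimmer, so its level is not separated from background here.

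The members lie in 2 main chromosome groups, by the order of genes in the RefSeq annotation of GRCm38.p6. On chromosome 2 the order is Scn3a, Scn2a, Scn1a, Scn9a and Scn7a, and no other protein-coding gene lies between Scn1a and Scn9a. The dim Scn1a and the bright Scn9a are therefore immediate neighbours. Chromosome 9 holds Scn10a and Scn11a side by side, and elsewhere Scn2b and Scn4b side by side, with Scn3b further off. Scn8a is on chromosome 15.

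Promoter sequence is shown for the members whose values were lower with SEMA3E than in control medium, Scn9a and Scn4b, and for Scn2b, the neighbour of Scn4b that lay under the floor. The RefSeq table used here (GRCm38.p6) holds windows for 7 of the 9 members. For 5 of them, bases upstream of the gene's outermost annotated start could be read, up to 250. They are printed 5′ to 3′ on the gene's own strand, in lower case, with a CCAAT box in capitals on whichever strand it lies (ATTGG where it is on the other strand).
Scn9a, chr2:66635115-66635212, minus strand: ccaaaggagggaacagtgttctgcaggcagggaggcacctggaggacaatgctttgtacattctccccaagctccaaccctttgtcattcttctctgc
Scn4b, chr9:45138374-45138623, plus strand: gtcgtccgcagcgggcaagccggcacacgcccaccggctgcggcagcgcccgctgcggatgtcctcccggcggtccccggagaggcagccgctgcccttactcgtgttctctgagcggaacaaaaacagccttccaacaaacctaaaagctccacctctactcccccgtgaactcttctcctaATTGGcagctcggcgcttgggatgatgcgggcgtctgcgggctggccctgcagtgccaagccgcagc
Scn2b, chr9:45117626-45117875, plus strand: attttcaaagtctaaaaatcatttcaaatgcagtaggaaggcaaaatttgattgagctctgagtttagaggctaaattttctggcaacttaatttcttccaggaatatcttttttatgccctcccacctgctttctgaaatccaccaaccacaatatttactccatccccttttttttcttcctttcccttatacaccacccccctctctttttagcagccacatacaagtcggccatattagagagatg
The adjacent beta subunit genes differ in base composition. The Scn4b stretch is 66.0% G or C with 23 CpG dinucleotides, more than in 89.8% of 19826 promoter stretches of the same 250 bases, whereas that of Scn2b is 38.4% G or C with 1 CpG, more than in 10.1% of them. The 98 bases of Scn9a hold 0 CpG. Both strands were searched for the letters CCAAT, which 34.4% of the 19826 stretches hold. The TATA box was searched as TATAAA, found in 14.9% of them, and the GC box as GGGCGG, found in 26.8%. The Scn4b stretch holds 1 CCAAT box, which begins 67 bases before its start, and neither of the others, and no motif searched was found in the Scn9a or Scn2b stretch. These letters were not tested against any measurement, and a motif that is missing here says nothing of the factor that reads it.

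Whether exposure to SEMA3E goes with a different level of channel transcripts was read from the SEMA3E array set against the control array. Scn9a and Scn4b were lower with SEMA3E, each with a log2 difference of −0.03, and the other 6 members above the floor were identical. Scn9a was lower under every scaling tried (−0.02 to −0.04), and so was Scn4b (−0.02 to −0.03). Among all 17653 genes above the floor 12.3% were lower with SEMA3E and 6.21% higher, against 2 and 0 of the 8 members. The median of the members was 0, as was that of all genes. A difference as far from 0 as that of Scn9a, in either direction, was found in 13.2% of all genes, and one as far as that of Scn4b in 13.4%. None of the members was 1.5-fold apart, and 0.17% of all genes were.

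Values with and without the antibody, in the presence of SEMA3E, were read from the IgG array set against the array of SEMA3E alone. Scn9a was higher with the IgG (log2 difference 0.03), back at its control value on the deposited scale, and stayed higher under every scaling (0.02 to 0.03). Against control, its value with the IgG was −0.0145 after quantile normalization, 0.0024 after loess and 0.0062 after centring. Scn3b was slightly lower (−0.0028), and the remaining 6 were identical, Scn4b among them. Across all genes above the floor 10.2% had a higher value on the IgG array and 10.3% a lower one. A difference at least as far from 0 as that of Scn9a was found in 15.0% of all genes. None of the 8 members was 1.5-fold apart, against 0.136% of all genes, and both medians were 0.

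Differences left in the presence of the antibody were read from the IgG array set against the control array. Scn4b (log2 difference −0.03) and Scn3b (−0.0028) were lower with the IgG and the other 6 were identical, against 11.4% of all genes lower and 7.59% higher. After centring each array on its median, however, Scn3b was higher, by 0.0034, and Scn4b was lower under every scaling. Again none of the members was 1.5-fold apart (0.204% of all genes were), and both medians were 0. Each of the 3 comparisons shares an array with the others, so the values of 1 array enter 2 of them.

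**Figure D2:**
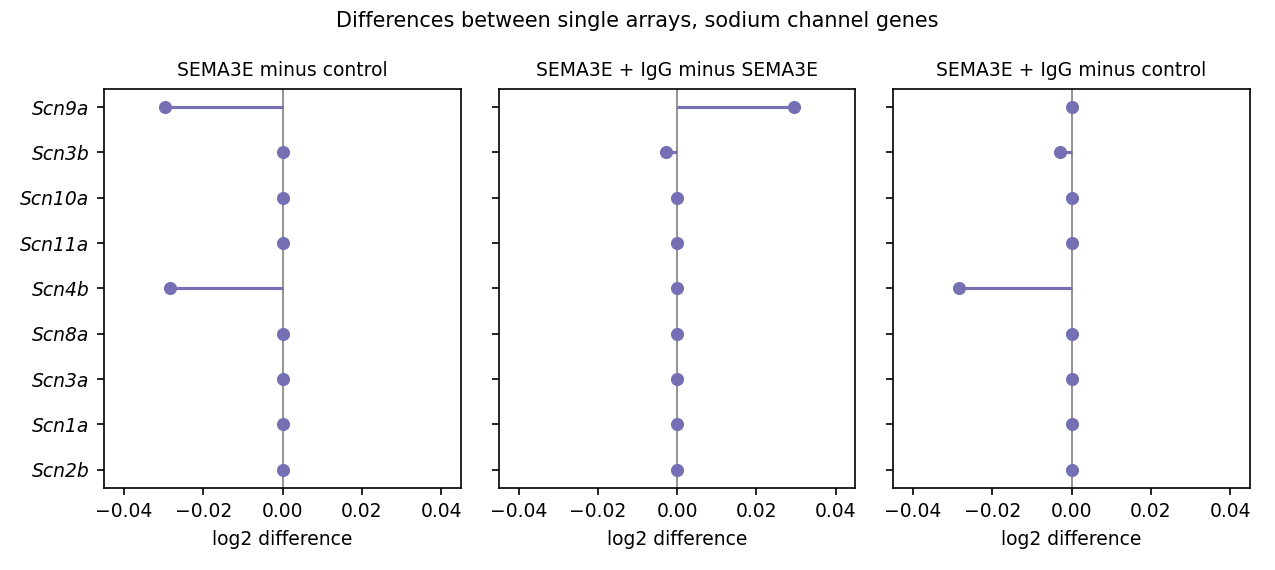
Log2 differences of the 9 sodium channel genes between single arrays, on the deposited scale, with genes in the same order as by brightness. A point at 0 is an identical value; Scn9a lies at −0.03 and then 0.03, Scn4b at −0.03 in the comparisons with control medium, and Scn3b at −0.0028 in the comparisons that use the IgG array, where its sign against control turns after centring.

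Each differing member showed its own pattern over the 3 media. Scn9a was low in SEMA3E alone and equal in the other arrays, a pattern of 3.68% of the genes above the floor. Scn4b was low in both SEMA3E media (3.27%), and Scn3b was low only on the array of SEMA3E with the IgG (4.01%). The remaining 5 members above the floor, like 74.9% of those genes, were identical on all 3 arrays, and 25.1% of the genes were not. Identity was less frequent among bright genes. With the genes above the floor split into 4 equal bins of brightness, the brightest bin, which holds Scn9a and Scn3b, had 55.9% identical, and the next, which holds Scn10a and Scn11a, 76.4%. The bin of Scn8a and Scn4b had 83.7%, and the dimmest, that of Scn1a and Scn3a, 83.5%.

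Equal values also occurred between unrelated probe sets of 1 array, which bears on how an identical reading is to be taken. The 65956 probe sets of the control array held 25830 distinct values, and 68.3% of them shared their value with at least 1 other probe set. The 539 units of Scn10a were read by 13 other probe sets on the IgG array, 12 on the SEMA3E array and 11 on the control array, and the 87.2 units of Scn3a by 65, 64 and 65. Scn1a, Scn8a, Scn11a and Scn2b also shared their values, with between 7 and 43 other probe sets. In contrast, the values of Scn9a and Scn3b were held by no other probe set on any array, and that of Scn4b by none on the control array and by 2 on each of the others. Of the genes above the floor that were identical on all 3 arrays, 67.1% shared their control value with another probe set. Of the genes that were not identical 18% did. These shares are not matched for brightness, and identity was less frequent among bright genes. The steps between values were fine: 38 distinct values of the SEMA3E array lay between the SEMA3E and control readings of Scn9a, and 96 between those of Scn4b. How the probes were combined into 1 value is not given in the sources used here, and equal readings are not evidence of equal RNA.

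The nearest patterns over the 3 arrays, by Euclidean distance between log2 values centred on their mean, were found among 11929 named genes. Those most like Scn9a were Chmp4b (distance 0.0001), Extl3 (0.00011) and Rbp7 (0.00038). Drg2, Zc2hc1a and Ess2 were most like Scn4b, and Atp1b3, Atp5g1 and Plaat3 most like Scn3b. Within a distance of 0.01 lay 96 genes for Scn9a, 118 for Scn4b and 10127 for Scn3b, whose values hardly differ between the arrays.

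Beside the members, 3 related channel genes were measured, and all 3 held identical values on the 3 arrays. Scn7a encodes NaX, a sodium-sensing relative that is not opened by voltage and is also made by Schwann cells and glia, and read 9476.5 intensity units. Scn2a (NaV1.2), a channel of central axons, read 196 units, and Nalcn, a sodium leak channel, 109.5.

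Genes whose products bind, move or cut the channels mostly held identical values too. Of 14 partners above the floor 2 were lower with SEMA3E than in control medium and 0 higher: Dpysl2 (log2 difference −0.15), which encodes CRMP2, an axonal protein that controls the surface level of NaV1.7, and the ubiquitin ligase gene Nedd4 (−0.02). That share is near the 12.3% of all genes that were lower. Both were back at their control value with the IgG, as Scn9a was on the deposited scale, a pattern of 3.68% of the genes above the floor. On the IgG array 3 of the 14 lay above their SEMA3E values (Dpysl2 0.15, Nedd4 0.02 and Ywhah 0.0076) and 0 lower. Over all genes the shares were 10.2% higher and 10.3% lower. Against control 1 was higher (Ywhah, 0.0076) and 0 lower, beside 7.59% of all genes higher and 11.4% lower. The fibroblast growth factor homologue genes Fgf11, Fgf13 and Fgf14, whose products bind the alpha subunit's tail, S100a10, which carries NaV1.8 to the membrane, Nedd4l, a ligase that removes NaV1.7 from it, and Bace1 and Adam10, which encode proteases that cut beta subunits, were identical on all 3 arrays. Apart from Adam10 these were singled out with their values known.

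Genes of the axon initial segment and node of Ranvier, where the channels are anchored, were identical in 10 of 13 cases between the SEMA3E and control arrays, as 81.4% of all genes above the floor were. L1cam (log2 difference −0.15), an adhesion molecule of axons, and Ank3 (−0.01), which encodes the anchor ankyrin G, were lower with SEMA3E, and Gldn (0.12), which encodes gliomedin, the Schwann cell signal that clusters channels at nodes, was higher. On the IgG array all 3 lay above their SEMA3E values (L1cam by 0.18, Ank3 by 0.01 and Gldn by 0.23), and 0 of the 13 were lower. Over all genes 10.2% were higher and 10.3% lower in that comparison. Gldn (0.36) and L1cam (0.03) also lay above their control values and 0 lay below, beside 7.59% of all genes higher and 11.4% lower. The brightest of the list, Sptbn1, a spectrin gene, was identical on all 3 arrays. The 8 measured Schwann cell markers averaged 10.21 on the log2 scale with the IgG, 10.25 with SEMA3E alone and 10.30 in control medium, and summed to 145893, 146950 and 148325 intensity units in that order. Pmp22, identical at 130696 units, makes up most of each sum. Pmp2, a myelin protein gene, read 3958.3 units with the IgG, 4743.5 with SEMA3E alone and 5868.4 in control medium, and S100b, a calcium-binding protein gene of glia, differed by −0.13 on the log2 scale between the IgG and control arrays. Of the 7 Schwann cell markers above the floor, 4 were identical on all 3 arrays, and Mal was 0.0063 higher with SEMA3E than in control medium. The part of Schwann cell content in the value of Gldn was not tested.

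Of 11 kinase genes whose products phosphorylate sodium channels, 3 were lower with SEMA3E than in control medium and 0 higher: Cdk5 (log2 difference −0.02), Gsk3b (−0.01) and Mapk14 (−0.0084). Over all genes the shares were 12.3% lower and 6.21% higher. With the IgG against SEMA3E alone, Gsk3b (0.01) and Mapk14 (0.0084) were higher and Cdk5 was lower (−0.15), beside 10.2% of all genes higher and 10.3% lower. Against control Cdk5 was lower with the IgG (−0.17) and the other 10 were identical, beside 11.4% of all genes lower. Protein kinase A and C genes (Prkaca, Prkacb, Prkca and Prkce) were identical on all 3 arrays. Ywhah, Ank3, Mal, Mapk14, Prkaca, Prkacb and Prkce fall outside the rule for naming genes and were singled out with their values known. The counts in these lists are on the deposited scale.

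Markers of neurons and of other cells differed between the SEMA3E and control arrays as well, and 12.3% of all genes were lower and 6.21% higher. Those shares are not matched for brightness. Identical values on all 3 arrays made up 55.9% of the brightest bin and 74.9% of all genes above the floor. Lower values with SEMA3E were read for 11 of 19 pan-neuronal markers and higher ones for 0, with log2 differences of −0.16 for Tubb3, a neuronal tubulin, −0.12 for the synaptic vesicle gene Syp, −0.07 for the actin-binding Avil, −0.065 for the neurofilament gene Nefl and −0.0036 for the microtubule gene Map2. Stmn2, a growth cone gene, was identical there and differed by −0.07 with the IgG against either other array. With the IgG against control 9 of the 19 were lower, Tubb3 (−0.16) and Syp (−0.12) among them, and 1, Map2, was higher (0.08). Over all genes 11.4% were lower and 7.59% higher in that comparison. Of 8 markers of large-diameter neurons 4 were lower and 0 higher with SEMA3E than in control medium. Differences were −0.38 for Pvalb (parvalbumin), −0.07 for the potassium channel gene Kcna1 and −0.0063 for the neurofilament gene Nefh. Cntnap2 was identical there and 0.05 higher with the IgG. Against control 3 of the 8 were lower with the IgG, Pvalb (−0.39) among them, and 1, Cntnap2, was higher. Nociceptor markers had 2 of 11 lower and 1 higher with SEMA3E than in control medium, near the shares over all genes. They were Gfra3, a receptor of artemin (−0.28), Ret (−0.09) and Mrgprd (0.0097). P2rx3 at 12.78 and Calcb at 14.61 on the log2 scale were identical on the 3 arrays, as Scn10a and Scn11a were.

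Lists of other cells held some lower values too, except the endothelial and mural list. Each of these lists has at most 8 genes above the floor. Over all genes above the floor 12.3% were lower with SEMA3E than in control medium and 6.21% higher. With SEMA3E against control, 2 of 7 fibroblast markers were lower and 0 higher (Ogn −0.57), 2 of 7 Schwann cell markers lower and 1 higher (Pmp2 −0.31), and 2 of 8 satellite glia markers lower and 1 higher (Atp1b2 −0.26, Kcnj10 −0.24, Fabp7 0.13). Macrophage markers had 1 of 5 lower and 1 higher (Cd68 −0.08, Lyz2 0.19), and the 5 endothelial and mural markers above the floor, with Acta2 the brightest, were identical. Dcn and Col1a2 of fibroblasts, Cdh19 and Apoe of satellite glia, and Aif1 of macrophages were identical on all 3 arrays, as were Rgs5 and Cdh5. The 19 pan-neuronal markers averaged 11.95 on the log2 scale with SEMA3E and the IgG, 11.94 with SEMA3E alone and 11.97 in control medium. Their sums were 448759, 450671 and 456746 intensity units in that order. Uchl1, identical at 205992 units, weighs most in each sum, and Nefl next, with 88568.7 units with SEMA3E and 92650.4 in control medium. With the IgG against SEMA3E alone the sum was lower while the mean was higher. The part of neuron content in the values of Scn9a and Scn4b was not tested.

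**Figure D3:**
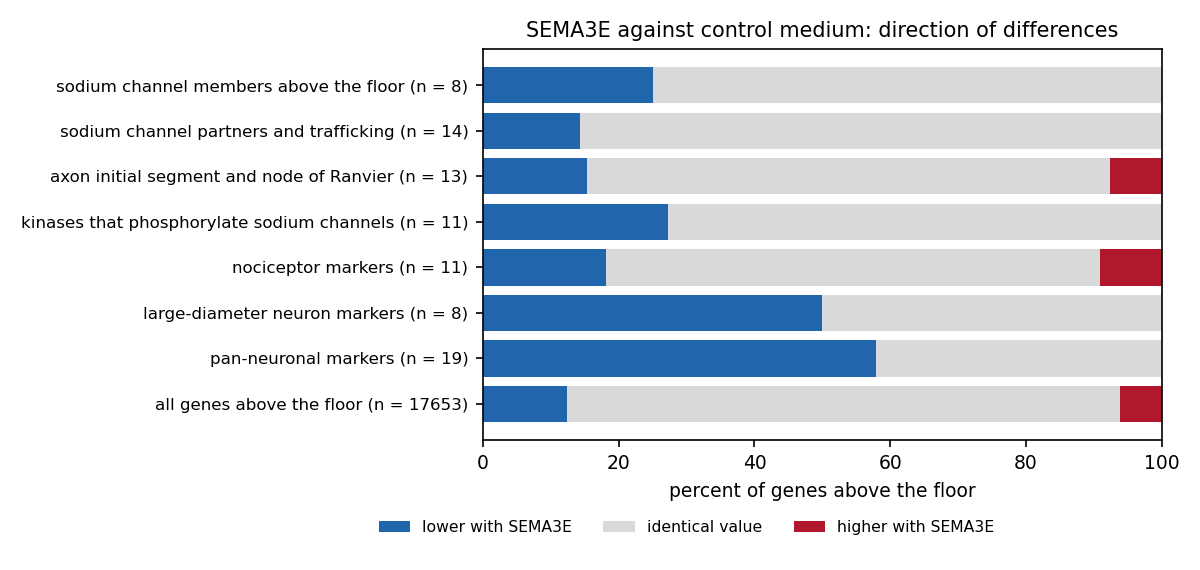
Share of genes above the floor that were lower, identical or higher with SEMA3E than in control medium on the deposited scale, for the sodium channel members and the related lists, with the number of genes in each. Identical values make up 6 of the 8 sodium channel members and most genes of all but the large-diameter and pan-neuronal lists, where 4 of 8 and 8 of 19 were identical; after centring on the array medians the identical genes count as higher.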

How the data were processed

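Per the labels' protocols, TRIzol and an SV column kit were used to isolate RNA, and a GeneChip WT Pico kit to label it. The deposited values are probe set intensities on a linear scale, for which the submitters' processing notes name Affymetrix Expression Console. How it summarised and normalized the probes, in which version and on which build, is not given in the sources used here. They ran from about 6.12 to 496402.2, with array medians between 44.52 and 44.97. Log2(intensity + 1) was taken. Of 65956 probe sets 30604 have a single symbol, of which 827 were updated through gene numbers with a RefSeq table (GRCm38.p6), and the brightest was kept per gene. A difference is that between 2 arrays, and identical means equal to within 1e-09 on the log2 scale. Alternatives were median centring, quantile normalization, loess, an offset of 16, the mean over probe sets and no floor.

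The members and gene lists were chosen with earlier results of these data known. All 9 members and every measured related channel were named, and in other lists, genes with a log2 range of at least 0.05 (at most 6) and the 3 brightest. Cell markers below the floor or dimmer than the brightest vomeronasal receptor gene were also named. For likeness, predicted, RIKEN clone, small RNA, olfactory, vomeronasal and immune receptor genes were left out. Protein identity between members was not computed, as no protein table was used here. Counting and scaling were tested on simulated shifts. Python 3.11.15, numpy 2.4.6, pandas 2.3.3, statsmodels 0.14.6 and matplotlib 3.10.9 were used.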

Additional observations from a re-analysis of the deposited data

How the results depend on the processing

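No paired analysis was possible because each medium has 1 array, and for the same reason no array could be left out. None of the members was 1.5-fold apart in any comparison under any of the 6 alternatives. The counts of members higher or lower do depend on the scaling, because identical values take the sign of the shift. After median centring 6 members were higher with SEMA3E than in control medium, with a median of 0.0062 on the log2 scale, and with the IgG against control 7 were higher and 1 lower, again with a median of 0.0062; all genes shifted by the same 0.0062. After quantile normalization 7 were lower and 1 higher with SEMA3E than in control medium, 4 were higher and 4 lower with the IgG than with SEMA3E alone, and 8 were lower with the IgG than in control medium. After loess 1 member, Scn9a, was higher with the IgG than in control medium (0.0024). The median level of the 9 members was 6.99 on the log2(intensity + 1) scale and 7.15 with an offset of 16. The mean over probe sets could not move a member, since each has 1 probe set, and without a floor Scn2b joined the members with identical values. At these levels signal over background limits Scn2b, Scn1a and Scn3a most.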
